A study of Homo sapiens with 20 samples.

Results

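Eph receptors are cell-surface receptor tyrosine kinases, and ephrins are their membrane-bound ligands. The 10 genes described here are 6 receptor genes (EPHA1, EPHA2, EPHA4, EPHB2, EPHB3 and EPHB4) and 4 ligand genes (EFNA1, EFNA5, EFNB1 and EFNB2), chosen by gene symbol from the 60271 genes measured, and each matched 1 gene. They were followed in MDA-MB-468, a human epithelial cell line from a triple negative breast cancer, during epithelial-mesenchymal transition (EMT) induced with 50 ng/mL epidermal growth factor (EGF). By the general protocol, cells were serum-starved for 24 h before EGF. They received EGF for 12, 24, 48 or 72 h, or none in the untreated control. There were 4 biological replicates per group and 20 RNA-seq libraries in all. Per the labels, plates of every group were seeded together and harvested together. By that account EGF was added at different culture ages, which cannot be told apart from the time in EGF. Whether starvation before EGF lasted 24 h in every group is not given. All 4 EGF-treatments were compared with the same 4 control libraries, and their changes are not independent of each other. The series covers 1 cell line and 1 dose of EGF, and it is not stated whether the biological replicates came from separate thawings or days, so the p-values measure the spread between these libraries.

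A receptor and an ephrin on adjoining cells signal both ways: the receptor sends a forward signal through its kinase domain, and the ephrin sends a reverse signal into the cell that carries it. A-class ephrins are held in the membrane by a lipid anchor and bind mostly EphA receptors, while B-class ephrins cross the membrane and bind mostly EphB receptors, with EphA4 accepting both classes. In epithelia and in carcinomas this contact signaling is known for its part in cell sorting, cell repulsion, junctions and migration.

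The libraries held 15611961 to 25856953 counts, and mitochondrial genes took a mean of 10.9% of them in the control, with the lowest EGF mean at 12 h (9.41%) and the highest at 72 h (15.0%). The part of this shift in the results below was not tested. All 7 epithelial and basal markers (EPCAM, CDH1, KRT7, KRT8, KRT18, KRT19 and EGFR) had means over 1 CPM, the counts of a gene scaled to a common library size, in all 5 groups. They summed to 4978 to 5496 CPM in control libraries and to 18910 to 19710 CPM at 12 h. Most of this came from EGFR (means of 3474 and 11750 CPM) and KRT18 (788 and 5136 CPM). At 12 h the means of EPCAM (215 CPM) and CDH1 (181 CPM) were above those of the control (181 and 128 CPM). At 72 h the means of EPCAM (144 CPM) and CDH1 (90.6 CPM) were below those of the control. The means of KRT7, KRT8, KRT18, KRT19 and EGFR were above the control at 72 h. PGR, which triple negative tumors lack, had no count in any library, and ESR1 had means of 2.33 to 5.76 CPM. The 5 endothelial markers summed to 1.58 to 6.16 CPM, the 5 fibroblast markers to 5.48 to 15.5 CPM, and the 4 blood markers to 0.854 to 1.75 CPM in the control and 13.3 to 28.4 CPM after EGF, from 1 blood marker with a mean over 1 CPM in each group.

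The Eph and ephrin genes split into rises and falls. At 12 h, 8 of the 10 genes were upregulated and 2 were downregulated, beside 32.9% of all 16522 tested genes higher and 36.5% lower by edgeR's quasi-likelihood test at an adjusted p under 0.05. Their median log2 fold change was 0.93, and that of all tested genes was -0.05. With a fold change limit of 1.5 added in both directions, 7 genes were higher and 1 was lower, beside 20.3% and 26.3% of all genes. None of the 10 genes was lost to the filter on low counts. In bulk RNA, a change in every cell and a change in the number of cells that express a gene cannot be told apart.

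The counts of called genes shrank to 48 h and grew again at 72 h, as did the shares of all tested genes that were called. At 24 h, 4 genes were higher and 3 lower, beside 29.2% and 29.6% of all genes, and past the fold limits 3 were higher and 0 lower, beside 16.9% and 16.8% (0 lower also at an unadjusted p under 0.05 and by DESeq2). With DESeq2, EPHB2 was also called at 24 h. At 48 h, 3 genes were higher and 1 was lower, beside 24.0% and 21.8%, and 1 higher and 0 lower past the limits, beside 15.3% and 6.66% (0 lower also at an unadjusted p under 0.05 and by DESeq2). At 72 h, 4 genes were higher and 4 lower, beside 30.6% and 31.0%, and 3 higher and 2 lower past the limits, beside 20.2% and 15.6% (1 lower by DESeq2). The median log2 fold change of the 10 genes was 0.29 (24 h), 0.00 (48 h) and -0.13 (72 h), and that of all tested genes lay between -0.01 and 0.01 at these times.

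**Figure D1:**
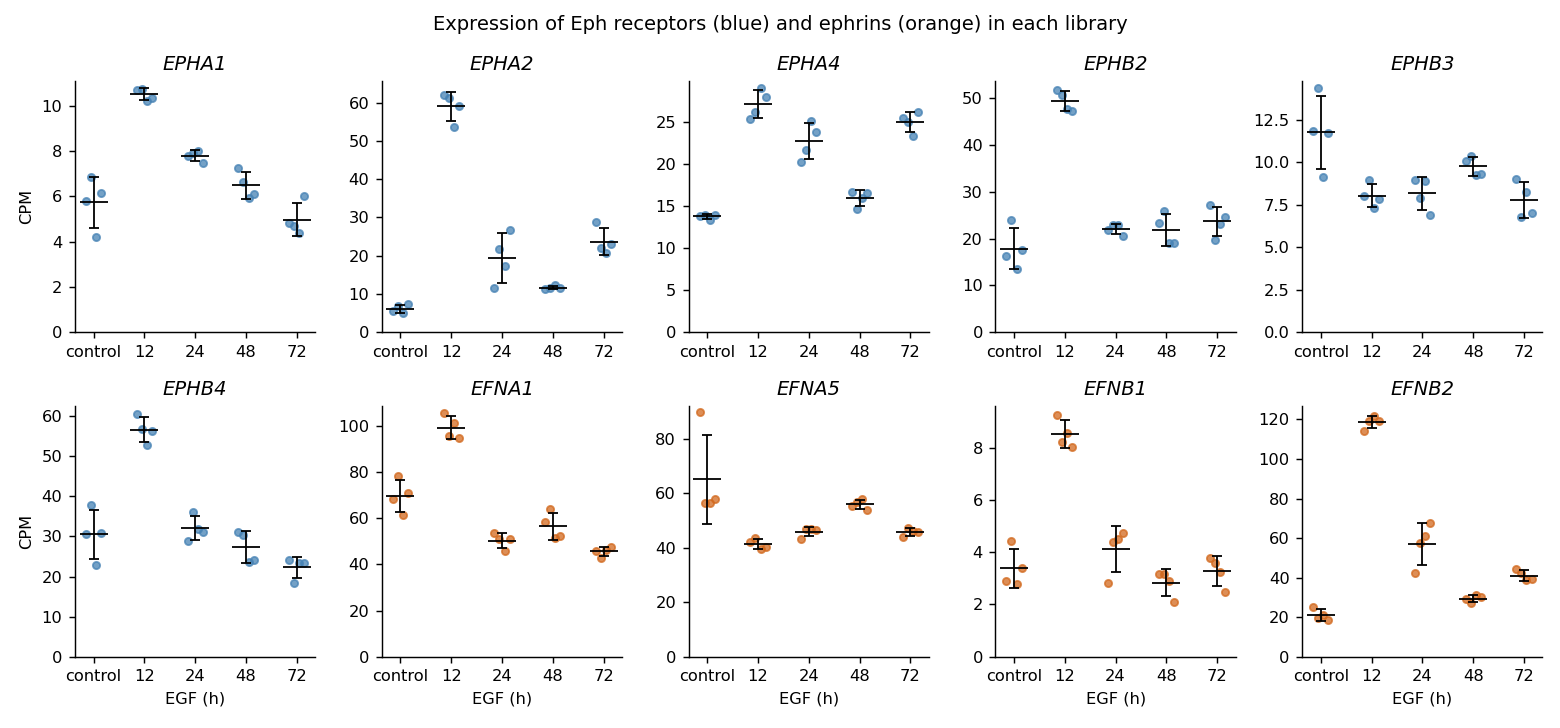
CPM of each gene (y axis, linear, from 0) in the untreated control and at the 4 times of EGF (12 to 72 h). Points are the 4 libraries of a group, lines and bars the mean ± SD; EPHA2 and EFNB2 stand highest at 12 h, fall to 48 h and stand higher again at 72 h, while EFNA5 has 1 control library at 89.7 CPM.

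EPHA2, EFNB2 and EPHA4 had the same course of calls: above the control at all 4 times, lower at 24 h than at 12 h, lower at 48 h than at 24 h, and higher at 72 h than at 48 h. For EPHA4, 2 of these calls depended on the setting: the fall from 12 to 24 h (-0.26 on the log2 scale, edgeR adjusted p = 0.0064) was not called when libraries were scaled by library size (-0.12, adjusted p = 0.21) or upper quartiles (-0.14, adjusted p = 0.11), and the rise at 48 h is given with its values below. The 250 bases before the annotated start of these 3 genes are shown because of this course. Capitals mark matches to any of 5 motifs searched on both strands, none of which contains another: AP-1 (TGANTCA), the cAMP response element CRE (TGACGTCA), the E2-box that SNAI and ZEB factors bind (CAGGTG), ETS (CCGGAAG) and EGR (GCGGGGGCG). The sequences are RefSeq's, on GRCh38.p14, read 5′ to 3′ on the strand of the gene.
EPHA2, chr1:16156070-16156319, minus strand: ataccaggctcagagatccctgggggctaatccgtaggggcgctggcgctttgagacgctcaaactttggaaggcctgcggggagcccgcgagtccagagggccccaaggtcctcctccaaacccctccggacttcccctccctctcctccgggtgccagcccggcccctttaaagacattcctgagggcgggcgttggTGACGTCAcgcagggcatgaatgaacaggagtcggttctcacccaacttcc
EFNB2, chr13:106535663-106535912, minus strand: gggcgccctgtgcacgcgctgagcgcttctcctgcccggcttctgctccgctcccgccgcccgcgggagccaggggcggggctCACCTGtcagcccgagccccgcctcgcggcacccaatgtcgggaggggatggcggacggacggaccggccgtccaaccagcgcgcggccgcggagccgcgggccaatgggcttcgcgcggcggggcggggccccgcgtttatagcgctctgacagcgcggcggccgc
EPHA4, chr2:221574203-221574452, minus strand, the first of its 2 annotated starts: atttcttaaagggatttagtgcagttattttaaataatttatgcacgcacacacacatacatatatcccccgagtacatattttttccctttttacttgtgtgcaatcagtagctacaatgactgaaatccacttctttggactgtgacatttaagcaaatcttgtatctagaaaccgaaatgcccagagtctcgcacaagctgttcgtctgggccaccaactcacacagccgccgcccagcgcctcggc
EPHA4, chr2:221572305-221572554, minus strand, its other annotated start: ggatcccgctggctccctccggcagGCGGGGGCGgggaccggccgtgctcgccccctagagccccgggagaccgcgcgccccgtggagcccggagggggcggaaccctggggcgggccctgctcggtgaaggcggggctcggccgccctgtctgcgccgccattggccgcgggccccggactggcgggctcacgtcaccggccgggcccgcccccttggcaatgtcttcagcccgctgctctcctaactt
No motif of the 5 was shared between these genes. The EPHA2 window holds a CRE, whose first base lies 51 bases before the start, and 1.65% of all 35116 RefSeq windows of this length hold one. The EFNB2 window holds an E2-box 167 bases before the start. It lies on the opposite strand and appears as CACCTG in the sequence printed here. The window at the second start of EPHA4 holds an EGR match 225 bases before that start, while the window at its first start held none of the 5.
Over all 12 windows of the 10 genes, E2-boxes were found for EPHA1, EPHB2 and EFNB2, beside 17.5% of all windows, and EGR matches for EPHA1 and EPHA4, beside 4.72%. No window held an AP-1 or an ETS match, which 6.57% and 8.52% of all windows hold, and this says only that these letters are not in these bases. The matches are a description of sequence, and binding was not measured.

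EPHA2 encodes the EphA receptor that is most often found at high levels in carcinomas. Its gene lies on chromosome 1 at 16124337 to 16156087 of GRCh38, with no exon base shared with another annotated gene. The control libraries held 5.53, 6.73, 4.99 and 7.26 CPM, and those at 12 h held 62.0, 61.2, 53.7 and 59.3 CPM. At 24 h the libraries spread over 11.6, 21.8, 17.4 and 26.8 CPM, the widest spread of any EPHA2 group. At 48 h they held 11.4, 11.5, 12.2 and 11.5 CPM, and at 72 h 28.8, 21.9, 20.8 and 23.2 CPM. No library with EGF overlapped the control at any time, and the 48 and 72 h groups did not overlap each other. Against the control, EPHA2 rose 9.64-fold at 12 h (log2 fold change 3.27 ± 0.18 SE, n = 4 and 4, edgeR adjusted p = 4.8e-13), the largest change among the 10 genes. Later rises were of 3.17-fold (24 h), 1.90-fold (48 h) and 3.87-fold (72 h), with edgeR adjusted p-values of 6.7e-08, 0.0003 and 4.0e-09. From 48 to 72 h EPHA2 rose 2.04-fold (log2 fold change 1.03 ± 0.17, edgeR adjusted p = 6.2e-05), when 17.9% of all genes rose and 17.9% fell.

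EFNB2 encodes ephrin-B2, a transmembrane ligand known from arteries, on chromosome 13 at 106489731 to 106535662. Its control libraries were at 25.4, 19.5, 21.0 and 18.7 CPM, and those at 12 h held 114, 119, 122 and 119 CPM. At 24 h they held 42.6, 57.6, 61.1 and 67.6 CPM, at 48 h 29.3, 27.0, 31.4 and 30.1 CPM, and at 72 h 44.2, 42.3, 38.7 and 39.2 CPM. As for EPHA2, every library with EGF lay above every control library, and the 72 h libraries lay above those at 48 h. EFNB2 was upregulated 5.62-fold at 12 h (2.49 ± 0.11 on the log2 scale, edgeR adjusted p = 2.1e-15), and its later rises were of 2.71-fold (24 h), 1.40-fold (48 h) and 1.95-fold (72 h). The change from 48 to 72 h was 1.40-fold (log2 fold change 0.48 ± 0.11, edgeR adjusted p = 0.0011). An annotated gene on the opposite strand, AL138689.2, overlaps 26.2% of the exon bases of EFNB2, and it had at most 1 count in any library; whether counting used the strand is not given in the sources used here.

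EPHA4 encodes the receptor that binds ephrins of both classes, on chromosome 2 at 221418027 to 221574202. Without EGF the libraries held 13.8, 13.9, 13.4 and 13.9 CPM, and those at 12 h held 25.4, 26.2, 29.1 and 27.9 CPM. At 24 h they held 20.2, 21.7, 25.1 and 23.8 CPM, at 48 h 16.6, 14.7, 15.9 and 16.5 CPM, and at 72 h 25.4, 25.0, 23.3 and 26.2 CPM. In CPM the control group was tight, and each EGF group lay wholly above it. EPHA4 rose 1.97-fold at 12 h (0.98 ± 0.08 on the log2 scale, edgeR adjusted p = 8.0e-11), followed by rises of 1.65-fold (24 h) and 1.82-fold (72 h). The rise of 1.16-fold at 48 h passed the threshold by little (log2 fold change 0.21 ± 0.08, edgeR adjusted p = 0.030). It was not called without control replicate 3 (0.20, adjusted p = 0.065), EGF 48 h replicate 1 (0.20, adjusted p = 0.075) or EGF 48 h replicate 4 (0.20, adjusted p = 0.073). The call was also lost with factors per gene taken from the deposited normalized values (0.07, adjusted p = 0.75), with no filter beyond 1 count (0.21, adjusted p = 0.12) and with only the compared libraries in the fit (0.21, adjusted p = 0.085). From 48 to 72 h EPHA4 rose 1.57-fold (log2 fold change 0.65 ± 0.08, edgeR adjusted p = 5.9e-07).

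The dip at 48 h was tested as the 48 h group against the mean of the 24 and 72 h groups. EPHA2 (log2 difference -0.88 ± 0.15), EFNB2 (-0.72 ± 0.09) and EPHA4 (-0.58 ± 0.07) were lower at 48 h, with edgeR adjusted p-values of 6.5e-05, 1.7e-06 and 3.5e-07. EFNA1 (0.24 ± 0.07), EFNA5 (0.29 ± 0.09) and EPHB3 (0.29 ± 0.11) were higher at 48 h, so 3 of 10 genes were called in each direction, beside 23.7% of all genes higher and 21.8% lower. The genes that stood above the control at both flanking times dipped and those that stood below it peaked, which places the 48 h mean of these 6 genes nearer to the control than the mean of its neighbors. For EPHB3 the adjusted p was 0.035, and the call was lost without any of 6 libraries, namely replicates 2 and 4 at 24 h, 1 and 2 at 48 h, and 2 and 4 at 72 h, with log2 differences of 0.25 to 0.28 in those fits. It was also lost with the deposited factors (0.16, adjusted p = 0.37) and with no filter beyond 1 count (0.28, adjusted p = 0.058). EFNB1 (-0.38 ± 0.16, edgeR adjusted p = 0.053) was not called and was called by DESeq2 (-0.40, adjusted p = 0.040). For EFNA1 it was lost without EGF 48 h replicate 2 (0.17, edgeR adjusted p = 0.057).

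**Figure D2:**
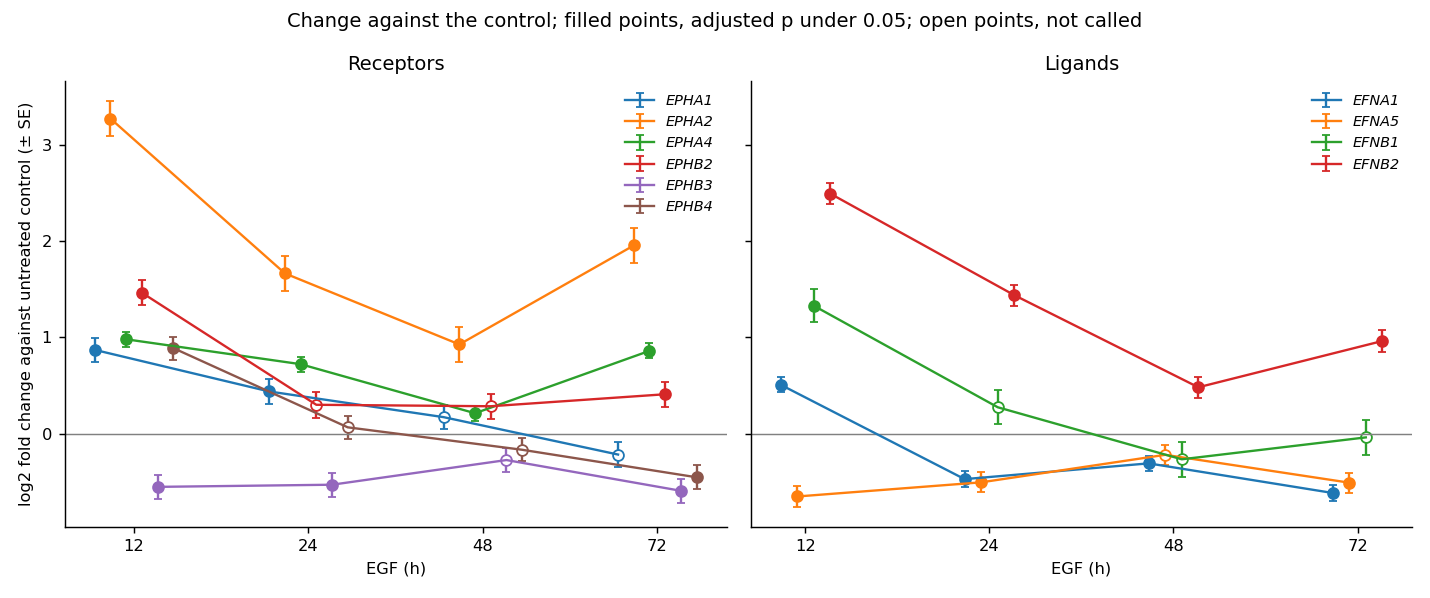
Log2 fold change of each gene against the untreated control (y axis, ± SE of the model) at 12 to 72 h of EGF, for receptors at left and ligands at right. Filled points passed an edgeR adjusted p under 0.05; the curves of EPHA2, EPHA4 and EFNB2 stay above 0 and have their lowest point at 48 h, and EFNA1 crosses from 0.51 at 12 h to below 0 at the later times.

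A second group of genes, EPHB2, EFNB1, EPHB4 and EPHA1, was highest at 12 h and was not called against the control at 48 h. EPHB2 encodes a receptor of B-class ephrins known from the sorting of intestinal crypt cells, on chromosome 1 at 22710839 to 22921500. In the control it was measured at 16.3, 24.1, 13.5 and 17.6 CPM, and those at 12 h held 51.8, 50.6, 47.8 and 47.4 CPM, a rise of 2.76-fold (log2 fold change 1.46 ± 0.13, edgeR adjusted p = 5.8e-10). The 24 h libraries held 21.9, 22.9, 22.9 and 20.6 CPM, all inside the range of the control, whose replicate 2 was the highest. The log2 fold change was 0.30 ± 0.13 at 24 h and 0.29 ± 0.13 at 48 h, neither of them called (edgeR adjusted p = 0.054 and 0.078), and 0.41 ± 0.13 at 72 h (adjusted p = 0.0094). Without control replicate 2 the values were 0.48 at 24 h (adjusted p = 0.00093), 0.46 at 48 h (adjusted p = 0.0017) and 0.59 at 72 h, and the 48 h value was also called without EGF 48 h replicate 3 (0.35) or 4 (0.35).

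EFNB1 encodes the transmembrane ligand ephrin-B1, and it lies on chromosome X at 68828997 to 68842147. It had the fewest reads of the 10 genes, 39 to 183 counts per library. The control libraries held 2.91, 4.42, 2.77 and 3.41 CPM, and those at 12 h held 9.24, 8.23, 8.56 and 8.03 CPM, all above the control. The rise at 12 h was 2.51-fold (log2 fold change 1.33 ± 0.17, edgeR adjusted p = 2.3e-07). At the 3 later times the means were 4.11 ± 0.87, 2.83 ± 0.51 and 3.27 ± 0.57 CPM (SD, n = 4), overlapping the control, with log2 fold changes of 0.28, -0.26 and -0.04 and no call. Only the 24 h value was called in a fit that left out 1 library, without control replicate 2 (0.44, adjusted p = 0.042) or without EGF 24 h replicate 1 (0.43, adjusted p = 0.036).

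EPHB4 encodes the preferred receptor of ephrin-B2, known from veins, on chromosome 7 at 100802565 to 100827521. Untreated libraries held 30.6, 38.0, 22.9 and 30.8 CPM, and those at 12 h held 60.5, 56.8, 52.8 and 56.3 CPM. At 72 h they held 24.2, 18.5, 23.3 and 23.3 CPM, where 3 of the 4 libraries lay between the lowest and the highest control library. EPHB4 rose 1.85-fold at 12 h (0.89 ± 0.12 on the log2 scale, edgeR adjusted p = 5.3e-07), had log2 fold changes of 0.07 at 24 h and -0.17 at 48 h without a call, and fell to 0.732 of the control at 72 h (-0.45 ± 0.12, edgeR adjusted p = 0.0029). The 48 h value was called without control replicate 3 (-0.28, adjusted p = 0.037). EPHB4 stood on opposite sides of the control at 12 and 72 h, with every 12 h library above every 72 h library, and these times were not tested against each other.

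EPHA1, the founding receptor of the family, lies on chromosome 7 at 143390289 to 143408892. In the control libraries it stood at 5.78, 6.85, 4.18 and 6.15 CPM, those at 12 h 10.7, 10.7, 10.2 and 10.3 CPM, and those at 24 h 7.76, 7.91, 8.01 and 7.47 CPM. The 12 and 24 h libraries lay above the control, by 1.83-fold (log2 fold change 0.87 ± 0.12, edgeR adjusted p = 1.1e-06) and 1.36-fold (0.44 ± 0.13, adjusted p = 0.0043). At 48 h the mean was 6.49 ± 0.60 CPM and at 72 h 4.96 ± 0.72 CPM, with log2 fold changes of 0.17 and -0.21 that were not called. The 72 h value was called without control replicate 3 (-0.34, adjusted p = 0.013). The fall from 48 to 72 h (-0.39 ± 0.13, edgeR adjusted p = 0.021) was lost without EGF 48 h replicate 1 (-0.33) and without EGF 72 h replicate 1 (-0.36), 2 (-0.36) or 3 (-0.33), and with the deposited factors (-0.28, adjusted p = 0.11).

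From 12 to 24 h, 8 of the 10 genes fell and 0 rose (0 also at an unadjusted p under 0.05 and by DESeq2), beside 25.9% of all genes lower and 27.9% higher. The 2 others, EPHB3 and EFNA5, had log2 changes of 0.02 and 0.15 that were not called, although EFNA5 was called as higher by library size (0.29, adjusted p = 0.029), by upper quartiles (0.26, adjusted p = 0.041) and with only the compared libraries (0.16, adjusted p = 0.019). With the deposited factors EFNA5 was instead called as lower (-0.58, edgeR adjusted p = 0.00067). By library size, EPHA4 (above) and EPHA1 (-0.29, adjusted p = 0.051, against -0.43 as reported) were not called, and EPHA4 was not called by upper quartiles. Neither EPHB3 nor EFNA5 had risen at 12 h. From 24 to 48 h, 4 genes fell (EPHA2, EPHA4, EFNB1 and EFNB2) and 1 rose (EFNA5), beside 24.3% and 25.9% of all genes. EFNA1 was called as higher by library size (0.32, edgeR adjusted p = 0.0020) and by upper quartiles (0.23, adjusted p = 0.036). It was also called with at least 10 counts in every library (0.20, adjusted p = 0.042) and without EGF 48 h replicate 3 (0.21, adjusted p = 0.046). EPHB3 was called as higher by library size (0.41, edgeR adjusted p = 0.013). The rise of EFNA5 (0.29 ± 0.10, edgeR adjusted p = 0.026) was lost without EGF 24 h replicate 1 (adjusted p = 0.070) or EGF 48 h replicate 3 (adjusted p = 0.054). The fall of EFNB1 (-0.54 ± 0.18, edgeR adjusted p = 0.016) was lost by library size (-0.38, adjusted p = 0.077) and without EGF 24 h replicate 4 (adjusted p = 0.062) or EGF 48 h replicate 4 (adjusted p = 0.067). From 48 to 72 h, 3 genes rose (EPHA2, EPHA4 and EFNB2) and 3 fell (EPHA1, EFNA1 and EFNA5), beside 17.9% of all genes in each direction. EPHB4 was called as lower by library size (-0.37, edgeR adjusted p = 0.020), with the deposited factors (-0.43, adjusted p = 0.022) and without EGF 48 h replicate 3 (-0.35). EPHB3 was called as lower by library size (-0.41, edgeR adjusted p = 0.018), by upper quartiles (-0.36), with only the compared libraries (-0.32) and without EGF 72 h replicate 1 (-0.39). The fall of EFNA5 (-0.29 ± 0.10, edgeR adjusted p = 0.033) was lost in the fits without EGF 48 h replicate 1, 2 or 3 or without EGF 72 h replicate 1, 3 or 4 (adjusted p = 0.052 to 0.097), so 2 of 8 such fits called it, and with the deposited factors (-0.22, adjusted p = 0.21).

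EFNA1 encodes ephrin-A1, a lipid-anchored ligand that binds EphA2 with high affinity, on chromosome 1 at 155127460 to 155134857. Control libraries held 68.5, 78.5, 61.5 and 70.8 CPM, and those at 12 h held 106, 95.6, 101 and 94.8 CPM. At 24 h they held 53.5, 51.3, 45.8 and 50.9 CPM, at 48 h 58.3, 63.9, 51.4 and 52.4 CPM, and at 72 h 46.1, 43.0, 46.1 and 47.4 CPM. The 12 h libraries lay wholly above the control and the 24 and 72 h libraries wholly below it, while 1 of the 48 h libraries lay within it. EFNA1 rose 1.42-fold at 12 h (0.51 ± 0.08 on the log2 scale, edgeR adjusted p = 3.7e-06) and was downregulated to 0.722 of the control at 24 h (-0.47 ± 0.08, adjusted p = 2.0e-05). It stood at 0.809 of the control at 48 h and at 0.654 at 72 h (-0.61 ± 0.08, edgeR adjusted p = 4.5e-07). The step from 12 to 24 h was -0.98 ± 0.08 (edgeR adjusted p = 8.5e-10).

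EPHB3, a receptor of B-class ephrins that shares the intestinal crypt with EPHB2, was the 1 receptor of the 6 that fell at 12 h. It lies on chromosome 3 at 184561784 to 184582409. The 4 control libraries were at 11.8, 14.4, 9.09 and 11.7 CPM, those at 12 h 8.03, 8.93, 7.29 and 7.84 CPM, and those at 72 h 8.98, 6.77, 8.27 and 7.03 CPM. Each of these EGF libraries lay below every control library. EPHB3 stood at 0.683 of the control at 12 h (-0.55 ± 0.13 on the log2 scale, edgeR adjusted p = 0.00046), at 0.694 at 24 h (-0.53 ± 0.13, adjusted p = 0.00094, but -0.37 and adjusted p = 0.053 with the deposited factors) and at 0.664 at 72 h (-0.59 ± 0.13, adjusted p = 0.00029). At 48 h, with a mean of 9.74 ± 0.57 CPM, the change of -0.27 ± 0.12 was not called (edgeR adjusted p = 0.075), and it was called without control replicate 3 (-0.38, adjusted p = 0.011).

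EFNA5 encodes ephrin-A5, a lipid-anchored ligand known from axon guidance, on chromosome 5 at 107376889 to 107670895. Untreated, the libraries were at 89.7, 56.5, 56.5 and 58.0 CPM, with replicate 1 far above the other 3. Those at 12 h held 42.2, 43.7, 39.6 and 40.5 CPM, at 24 h 43.4, 47.1, 46.9 and 46.5 CPM, at 48 h 55.3, 57.0, 57.8 and 53.9 CPM, and at 72 h 44.1, 47.4, 46.2 and 45.7 CPM. The 12, 24 and 72 h groups lay wholly below the control, and the 48 h group overlapped it. EFNA5 stood at 0.637 of the control at 12 h (-0.65 ± 0.10 on the log2 scale, edgeR adjusted p = 6.6e-06), 0.706 at 24 h (-0.50 ± 0.10) and 0.704 at 72 h (-0.51 ± 0.10). Without control replicate 1 the values were -0.46, -0.31 and -0.32, all still called (edgeR adjusted p = 5.7e-07, 0.00012 and 8.8e-05). The 48 h value was -0.22 ± 0.10 with no call, -0.03 without control replicate 1, and called without control replicate 2 (-0.28) or 3 (-0.28).

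The direction of EFNA5 at 12 h depended on which deposited column was used. The authors' normalized values are not the counts scaled per library: the ratio of the value to the count depends on the gene too. For EFNA5 the log2 of that ratio, or factor, relative to the median gene of the library, was -1.17 in control replicate 1 and -0.17, -0.04 and 0.00 in the other control libraries, against 0.60, 0.56, 0.49 and 0.53 at 12 h. The mean factor changed by 0.89 between these groups, more than for 99.3% of the 11956 genes that no library had under 20 counts of. With these factors in the edgeR fit, EFNA5 had a log2 fold change of 0.26 (12 h, adjusted p = 0.075), -0.33 (24 h, adjusted p = 0.030), 0.09 (48 h) and -0.13 (72 h, adjusted p = 0.39). EPHB2 had the next largest factor change at 12 h among the 10 genes, 0.48, and its log2 fold changes with the factors were 0.68 at 24 h and 0.52 at 48 h, both called (adjusted p = 0.0060 and 0.039). For the other 8 genes the mean factor at 12 h differed from the control by 0.20 or less, as for EPHA4. Within the control, the factors of EPHA4 spread over -0.28, -0.21, -0.01 and 0.43. The deposited factors also ended the calls of EPHA4 at 48 h, EPHB3 at 24 h and 3 calls between times of EGF, as given with each gene. They added calls of EPHB4 as lower from 48 to 72 h (-0.43, edgeR adjusted p = 0.022) and of EFNA5 as lower from 12 to 24 h (-0.58, adjusted p = 0.00067).

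**Figure D3:**
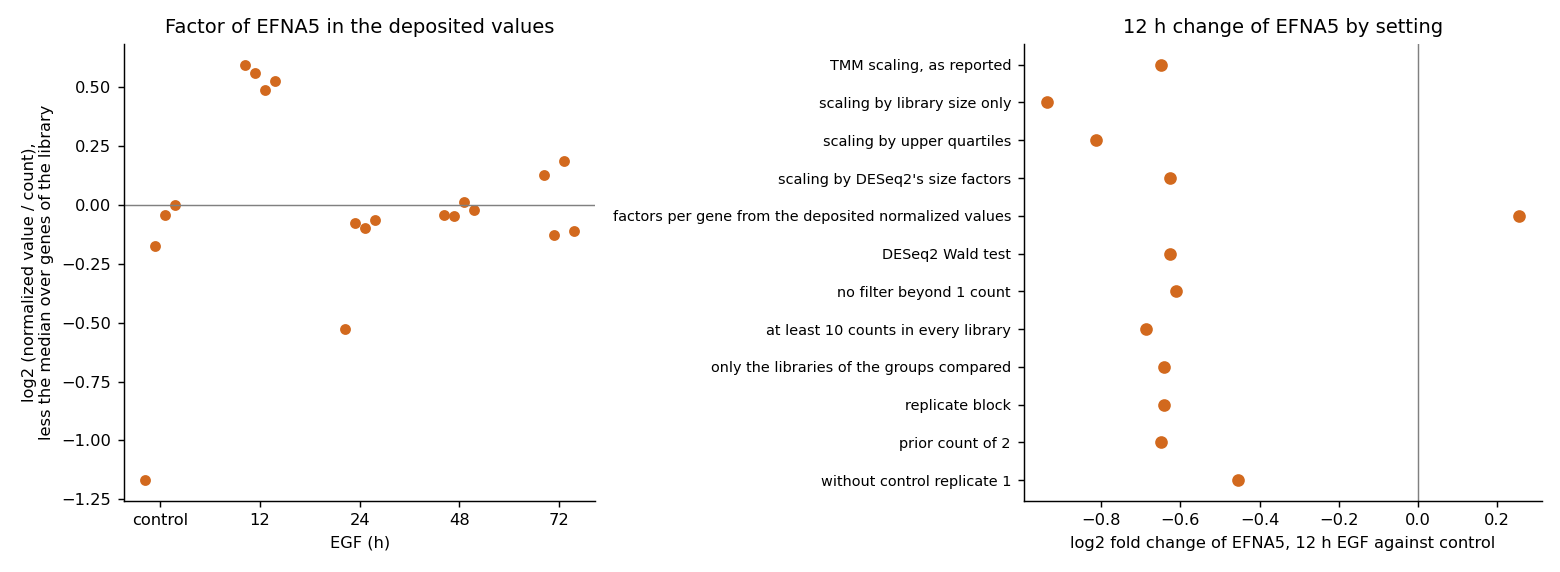
Left, log2 of the deposited normalized value over the deposited count for EFNA5, less the median over genes of the same library, with 1 point per library in each group; control replicate 1 lies at -1.17 and the 4 libraries at 12 h between 0.49 and 0.60. Right, log2 fold change of EFNA5 at 12 h against the control under each setting (x axis), which is 0.26 with the deposited factors and between -0.94 and -0.46 in the other settings plotted.

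Levels of different genes were compared per kilobase of merged exon length in GENCODE 29. In the control, EFNA1 was highest with 27.5 ± 2.8 CPM per kb (SD, n = 4), followed by EFNA5 with 11.4 ± 2.9, and the ranges of these 2 ligands did not overlap. EPHB4 (4.75 ± 0.96) and EFNB2 (4.21 ± 0.60) came next and overlapped each other. EPHB3 (2.59 ± 0.48) and EPHA4 (1.82 ± 0.04) followed, each apart from its neighbors. The lowest 4, EPHA2 (1.47 ± 0.25), EPHB2 (1.43 ± 0.36), EPHA1 (1.21 ± 0.24) and EFNB1 (1.02 ± 0.22), overlapped from one to the next.

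At 12 h the order per kilobase had changed. EFNA1 remained first with 39.1 ± 2.0 CPM per kb, EFNB2 was second with 23.6 ± 0.6 and EPHA2 had moved from the seventh place to the third with 14.2 ± 0.9. EPHB4 (8.80 ± 0.49) and EFNA5 (7.28 ± 0.32) followed, and none of these 5 ranges overlapped the next. EPHB3, the fifth in the control, was the last at 12 h with 1.77 ± 0.15 CPM per kb. At 72 h EFNA1 was first again with 18.0 ± 0.7, EFNB2 (8.19 ± 0.52) and EFNA5 (8.04 ± 0.24) overlapped, and EPHA2 was the highest receptor with 5.69 ± 0.85, above EPHB4 with 3.47 ± 0.40. Lengths summed over all annotated exons can differ from those of the transcripts these cells used, which were not measured here.

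**Figure D4:**
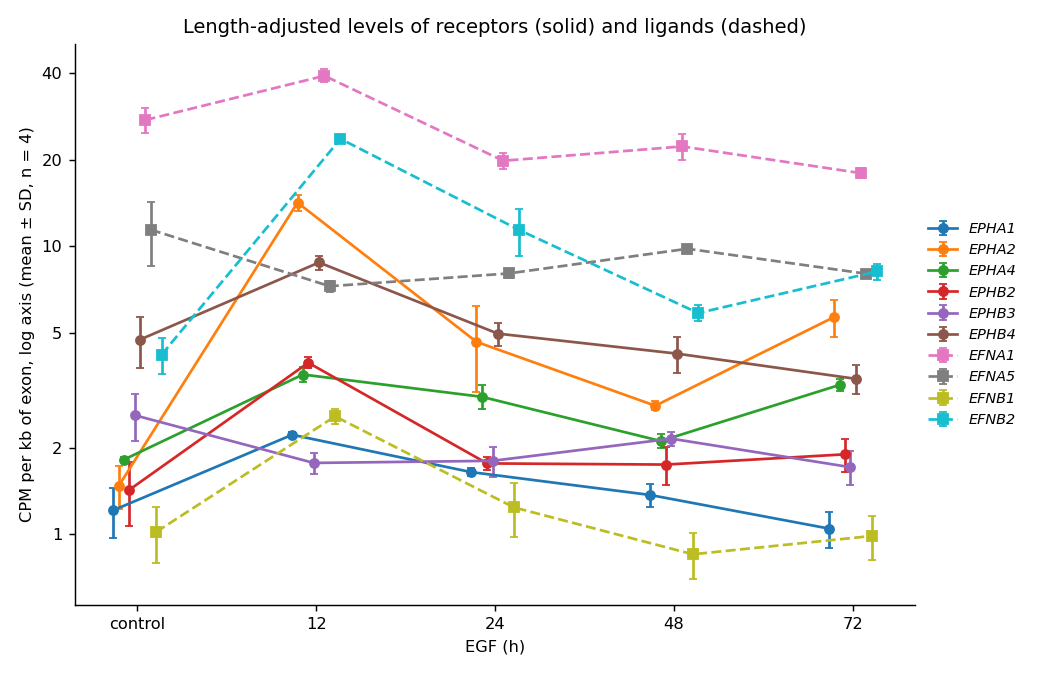
CPM per kilobase of exon (y axis, log scale; mean ± SD of 4 libraries) in the control and at the 4 EGF times, with receptors as solid and ligands as dashed lines. EFNA1 is the highest of the 10 genes in all 5 groups, and EPHA2 rises from 1.47 in the control to 14.2 at 12 h.

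Ligand and receptor counts were also compared within each library, which removes the library's scaling. The count ratio of EFNA1 to EPHA2 had log2 values of 3.63, 3.54, 3.62 and 3.29 in the control and 0.77, 0.64, 0.92 and 0.68 at 12 h. It was 2.20, 1.23, 1.40 and 0.92 at 24 h, 2.36, 2.48, 2.07 and 2.19 at 48 h, and 0.68, 0.97, 1.15 and 1.03 at 72 h. Every library with EGF lay below every control library. As a fold, the ratio stood at 0.147 of the control (12 h), 0.236 (24 h), 0.421 (48 h) and 0.169 (72 h), each with an exact two-sided permutation p of 0.029, the smallest that 4 against 4 libraries allow, and 0.033 after Benjamini-Hochberg adjustment over 8 ratio tests. These ratios rest on the same counts as the changes of EFNA1 and EPHA2 given above.

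The ratio of EFNB2 to EPHB4 moved the other way. Its log2 values were -0.27, -0.96, -0.13 and -0.72 in the control, 0.92, 1.07, 1.20 and 1.09 at 12 h, and 0.56, 0.68, 0.93 and 1.12 at 24 h. At 48 h they were -0.08, -0.17, 0.41 and 0.32, which overlapped the control, and at 72 h 0.87, 1.19, 0.73 and 0.75. The ratio rose 3.01-fold (12 h), 2.53-fold (24 h) and 2.65-fold (72 h; exact two-sided permutation p = 0.029, adjusted p = 0.033 for each). The 1.56-fold value at 48 h was not called (exact permutation p = 0.057, adjusted p = 0.057); without control replicate 3 it was 0.77 on the log2 scale.

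**Figure D5:**
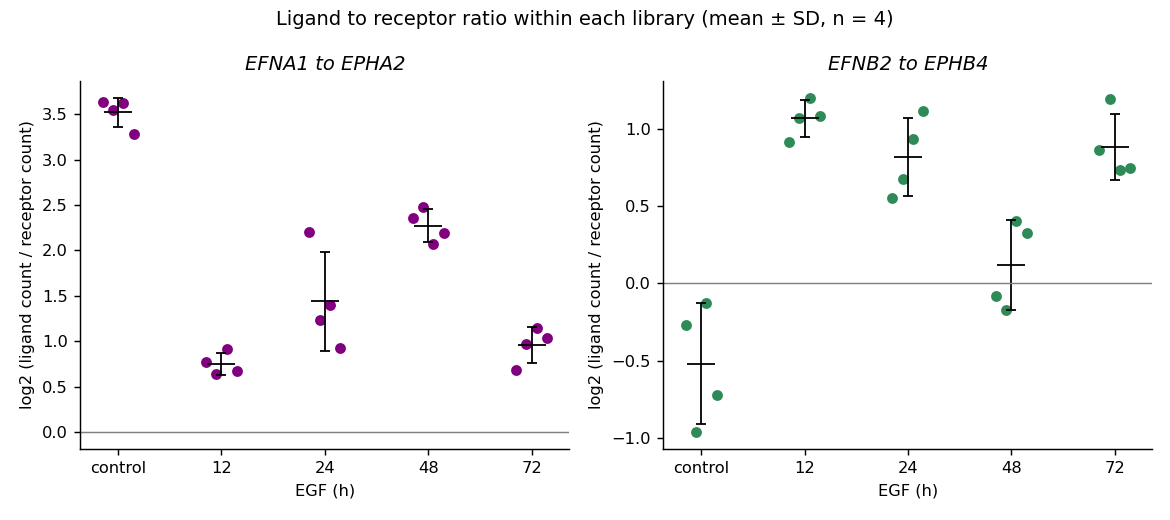
Log2 ratio of ligand to receptor count in each library (y axis; points, 4 libraries per group; lines and bars, mean ± SD) for EFNA1 to EPHA2 at left and EFNB2 to EPHB4 at right, in the control and after 12 to 72 h of EGF. The ratio of EFNA1 to EPHA2 falls from a mean of 3.52 to 0.75 at 12 h, and that of EFNB2 to EPHB4 rises from -0.52 to 1.07.

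Of the 12 other genes of the family, 6 passed the filter on low counts. Against the control, 1 of them was higher and 3 were lower at 12 h, beside 32.9% and 36.5% of all genes. At 24 h 1 was higher and 4 lower (29.2% and 29.6%), and at 72 h 1 and 3 (30.6% and 31.0%). Their median log2 fold change was -0.38 at 12 h, -0.94 at 24 h and -0.80 at 72 h. EPHB6, a receptor without kinase activity, held 9.44, 9.25, 6.19 and 7.83 CPM in the control and 35.8, 33.4, 28.0 and 32.7 CPM at 12 h, and it was the 1 of these 6 genes that was higher at 12 h and at 72 h. It rose 3.98-fold at 12 h (1.99 ± 0.13 on the log2 scale, edgeR adjusted p = 1.9e-12) and 1.73-fold at 72 h. EFNB3, the third B-class ephrin, fell to 0.513 of the control at 12 h and 0.254 at 72 h, from a mean of 2.18 to 1.11 and 0.553 CPM. EFNA4, an A-class ephrin, stood at 0.769 of the control at 12 h and at 0.396 at 72 h (-1.34 ± 0.14 on the log2 scale, edgeR adjusted p = 1.5e-08). An annotated gene on the same strand, AL691442.1, overlaps 15.0% of the exon bases of EFNA4, and how reads in shared bases were counted is not given. EPHA3 had no count in any library, and EPHA5 and EPHA8 had at most 2.

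Genes that act with Eph receptors and ephrins were taken from a list of 53, of which 51 passed the filter. In time order, 36, 33, 15 and 19 of them were higher and 6, 3, 8 and 10 lower than in the control. Of all tested genes, 32.9%, 29.2%, 24.0% and 30.6% were higher and 36.5%, 29.6%, 21.8% and 31.0% lower at the same times. The median log2 fold change of the 51 genes was 0.51 at 12 h and 0.09 at 72 h, and that of all tested genes was -0.05 and -0.01. Among the 15 tested kinases, phosphatases and genes of receptor turnover, 14 were higher and 0 lower at 12 h (0 lower also at an unadjusted p under 0.05 and by DESeq2), and 7 were higher and 1 lower at 72 h. Among the 29 tested adaptors and exchange factors, 19 were higher and 5 lower at 12 h, and 10 and 8 at 72 h. Of the 7 genes of reverse signaling and cleavage, 3 were higher and 1 lower at 12 h, and 2 and 1 at 72 h.

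Among called partners with a mean of at least 1 CPM, the same 2 genes had the largest rises and the same 2 the largest falls at 12 and 72 h. FYN, a Src family kinase that acts downstream of EphA receptors, rose from a mean of 2.66 ± 0.49 CPM to 12.9 ± 1.5 at 12 h and 12.3 ± 1.2 at 72 h (log2 fold changes 2.28 and 2.21, edgeR adjusted p = 1.7e-13 and 4.0e-13). NGEF, or ephexin, an exchange factor that acts downstream of EphA receptors, rose from 2.64 ± 0.69 to 12.7 ± 0.7 and 12.3 ± 0.5 CPM (2.26 and 2.22). VAV3, a guanine nucleotide exchange factor, fell from 115 ± 10 to 25.9 ± 0.9 CPM at 12 h and 51.8 ± 3.1 CPM at 72 h (-2.15 and -1.15). ARHGEF19, an exchange factor of the ephexin group, fell from 3.90 to 1.33 CPM at 12 h and to 2.76 CPM at 72 h (-1.56 and -0.50, edgeR adjusted p = 2.4e-06 and 0.045). Exchange factors of the forward signal were called in both directions.

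The gene whose 5 group means were most like those of each Eph or ephrin gene was found among 9034 tested genes with a mean of at least 10 CPM, by the root mean square difference of centred log2 CPM over the 5 groups. PLK3, a polo-like kinase, was nearest to EPHA2 (0.15), GJB5, a connexin, to EFNB2 (0.07), and FOXD1, a forkhead transcription factor, to EPHA4 (0.05). EPHB2 was nearest to TBC1D2 (0.04), EFNB1 to CLUH (0.05), EPHB4 to TOB2 (0.08) and EPHA1 to SOCS5 (0.04). EFNA1 was nearest to SURF6 (0.06), EPHB3 to TBCEL (0.02) and EFNA5 to SMIM20 (0.02). These distances are descriptions over 5 means of 20 libraries, and genes with a small range reach small distances more easily: the range of log2 means was 3.26 for EPHA2 and 0.58 for EPHB3.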

How the data were processed

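Total RNA (RNeasy) from 20 cultures was made into Lexogen Corall mRNA libraries and sequenced in single-end reads of 75 bases. The authors deposited, per gene and library, an estimated count and a normalized score made in DESeq2, on hg38 per the submitters' processing notes. The aligner, counter, annotation and use of strand or molecular identifiers are not given in the sources used here. Fold changes and p-values in the deposited tables are the authors' own comparisons and were not used. Samples were grouped by the labels.

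The 10 deposited tables repeat the same counts, which were whole numbers and were used as deposited. They were analyzed in edgeR 4.0.16 (R 4.3.3): filterByExpr kept 16522 of 60271 genes, TMM scaled the libraries, and 1 model with a mean per group was fitted to all 20 libraries. Tests were robust quasi-likelihood F-tests with Benjamini-Hochberg adjustment over all tested genes, an adjusted p under 0.05 being a call, with fold changes at a prior count of 0.125. The comparisons were each time against the control, each time against the one before it, and 48 h against the mean of 24 and 72 h. CPM are TMM-scaled. Ratios of counts were tested by exact permutation. Gene models are GENCODE 29. The procedure was checked on simulated data in which few genes were changed, as many up as down. That check does not cover the choice of scaling where many genes change.

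The 10 genes, the partner list and the tests were chosen with earlier results of these data known. Named are all 10 genes and, at 12 and 72 h, the 2 largest rises and falls among called family or partner genes with a mean of at least 1 CPM; EPHA3, EPHA5 and EPHA8 were added after their values were seen. Replicates of a group differed by 3.72 to 63.4 times the sampling variance over 30 pairs, so none was a duplicate. Alternatives were 3 other scalings, the deposited factors per gene, DESeq2 1.42.0, other filters, fewer libraries, a replicate block and leaving out each library.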

Additional observations from a re-analysis of the deposited data

Results flagged for a closer look

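In each group of 4 libraries, the gap between the highest or lowest library and its neighbor was divided by the whole range, and a value above 0.829 marks a library that stands apart; chance marks about 1 in 20 groups, and 5 of 50 were marked. EFNA5 in the control had the largest value, 0.954, from replicate 1 at 89.7 CPM beside 56.5 to 58.0 CPM. EFNA5 at 24 h had 0.852, from replicate 1 at 43.4 CPM below the others at 46.5 to 47.1 CPM. EPHA2 at 48 h had 0.848, from replicate 3 at 12.2 CPM beside 11.4 to 11.5 CPM, a narrow group. EPHB4 at 72 h had 0.834, from replicate 2 at 18.5 CPM beside 23.3 to 24.2 CPM. EFNB1 at 24 h had 0.829, from replicate 1 at 2.82 CPM beside 4.41 to 4.73 CPM. EFNA1 moved in opposite directions at 12 and 24 h against the shared control, and the direct comparison of 24 with 12 h gave a log2 change of -0.98 (edgeR adjusted p = 8.5e-10).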

How the results depend on the processing

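Counts of called Eph, ephrin and partner genes stayed within 1.5 times of those reported in all alternatives run. Against TMM, scaling by library size shifted the median of all genes by -0.28 at 12 h and -0.14 at 24 h, and upper quartiles by -0.16 at 12 h. The share of called genes that were higher at 12 h went from 47.4% to 30.2% and 37.2%, and at 24 h from 49.6% to 36.3% by library size. By library size it went from 51.9% to 68.6% for 24 against 12 h (66.1% by upper quartiles, 39.2% with the deposited factors), from 51.5% to 71.8% for 48 against 24 h, from 50.0% to 33.8% for 72 against 48 h, and from 52.1% to 72.6% for 48 h against its neighbors.

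Directions of single genes turned only as follows, and the cause was not tested. With the deposited factors EFNA5 had 0.255 at 12 h, 0.088 at 48 h and -0.58 from 12 to 24 h (edgeR adjusted p = 0.00067). By library size EPHB2 had 0.138 and by upper quartiles 0.053 from 24 to 48 h (0.020 with at least 10 counts in every library), EPHB2 at 48 h against its neighbors 0.050 and EPHB4 at 24 h -0.078 by library size, EPHB3 -0.015 from 12 to 24 h with no filter beyond 1 count, and EFNB1 0.020 at 72 h with at least 10 counts. Leaving out 1 library gave -0.109 to 0.044 for EPHB2 from 24 to 48 h, -0.029 to 0.096 for EPHB3 from 12 to 24 h, -0.049 to 0.192 for EPHB4 at 24 h, -0.041 to 0.090 for EPHB4 at 48 h against its neighbors, and -0.124 to 0.123 for EFNB1 at 72 h. All but EFNA5 at 12 h were uncalled as reported.

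Same-numbered libraries deviated together in few pairs (correlations -0.24 to 0.35 over 40 pairs, 5 above 0.1, and 8 of 20 libraries closest to their own number). The highest values, 0.33 and 0.35, were of control with 48 h in replicates 2 and 3. Such correlations cannot decide whether the numbers pair cultures, and the main fit did not pair them. A replicate block gave 3 more calls among 80 values, for EPHB2 at 24 h (0.31), EPHB3 from 48 to 72 h (-0.32) and EFNB1 at 48 h against its neighbors (-0.39). Sign permutation within the replicate block cannot give an exact p below 0.125, which all ratios that were called then had: -2.77, -2.08, -1.25 and -2.56 for EFNA1 to EPHA2, and 1.59, 1.34 and 1.41 at 12, 24 and 72 h for EFNB2 to EPHB4, on the log2 scale. With 3 against 4 libraries no exact two-sided p below 0.057 is possible, so leaving out 1 library tests no ratio; in time order the values without 1 library ranged from -2.85 to -2.73, -2.34 to -1.91, -1.33 to -1.18 and -2.64 to -2.47 for EFNA1 to EPHA2, and from 1.44 to 1.72, 1.19 to 1.47, 0.49 to 0.77 and 1.26 to 1.54 for EFNB2 to EPHB4. At a few reads per library, as for EPHA6, fold changes carry large errors.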
